A study of Mus musculus with 13 samples.

Results

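Foxp3+ regulatory T cells were examined in 13 single-cell RNA-seq libraries from the colon of mice. A cell was counted as a Foxp3+ regulatory T cell if its barcode held at least 2 UMIs (unique molecular identifiers, each standing for 1 captured transcript) of the CD3 genes Cd3d, Cd3e and Cd3g together and at least 1 UMI of Foxp3, with no UMI of Cd8a, Trdc or Cd79a. There were 521 such cells among 118892 barcodes that passed the quality filter, 501 from tumors and 20 from mucosa. The choice rests on measured transcripts, so the levels of Foxp3 and of the CD3 genes in these cells describe the rule and are not a result.

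All animals were C57BL/6J mice of the genotype ApcMin/+; p16cis/cis, in which a germline Apc mutation is combined with an engineered element that drives methylation at the p16 promoter, and all received a diet with extra folic acid, vitamin B12, betaine and choline. The libraries were 10 colon tumors and 3 samples of adjacent mucosa from 3 mice. Mouse A (24 weeks) gave tumors 5 to 8 and mucosa 2, mouse B (23 weeks) gave tumors 9 and 10 and mucosa 3, and mouse C (20 weeks) gave tumors 1 to 4 and mucosa 1. No library came from a mouse on control diet, so diet was not compared here. Tumors were dissociated with an enzymatic tumor dissociation kit and mucosa with EDTA and TrypLE, so tissue and dissociation method cannot be told apart in any comparison of tumor with mucosa.

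Regulatory T cells are CD4+ T cells that restrain other immune cells, and the transcription factor Foxp3 maintains their identity. They carry the high-affinity IL-2 receptor and the inhibitory receptor CTLA-4, which limits costimulation by antigen-presenting cells. In the gut, cells with the factor Helios (Ikzf2) often carry Gata3 as well, and regulatory T cells of non-lymphoid tissue can produce amphiregulin (Areg), a growth factor for epithelium.

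Each library held between 5.72e+07 and 1.16e+08 UMIs in its called barcodes, and 5188 to 10817 barcodes were retained. Any pair of libraries shared 10 to 39 retained barcode sequences, 0 of the Foxp3+ T cells had a barcode that was also a Foxp3+ T cell elsewhere, and 15 had a barcode retained in another library. The sex labels could not be used, since 2 of the 3 animal codes carry both sexes and all 13 libraries held Ddx3y at 29.9 CPM or more with Xist at 0.134 CPM or less (CPM, UMIs per 1000000 UMIs of the cells summed). Scored for doublets, 50 of the 501 tumor Foxp3+ T cells and 0 of the 20 mucosal ones were among the barcodes with the highest scores. They were kept in the main results, and counts without them are given beside many of the main ones. The deepest Foxp3+ T cell, in tumor 1, held 90777 UMIs with 228 UMIs of the epithelial gene Epcam and was not among the marked barcodes.

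The named markers bore out the label in tumors, Icos least. The costimulatory receptor Tnfrsf4 (OX40) stood at 1218 CPM in the lowest tumor, 1656 CPM in the median and 2317 CPM in the highest, against a mean of 21.0 CPM over all retained tumor barcodes. The receptor Tnfrsf18 (GITR) stood at 1035 ± 205 CPM (SD, n = 10 tumors), Ctla4 at 934 ± 149 CPM and the costimulatory receptor Icos at 559 ± 121 CPM, against means of 27.9, 26.2 and 19.5 CPM over all retained tumor barcodes. Most of those barcodes are not T cells. Summed over tumors, T cells with a Cd4 UMI and no Foxp3 UMI held Tnfrsf4 at 404 CPM and Tnfrsf18 at 348 CPM. Ctla4 stood at 494 CPM and Icos at 454 CPM in them, so Icos was only slightly higher in the Foxp3+ cells. In mucosa, Tnfrsf4 gave 43, 8 and 12 UMIs in the Foxp3+ T cells of mucosa 1, 2 and 3, Tnfrsf18 gave 27, 7 and 10, Ctla4 gave 22, 1 and 4, and Icos gave 19, 12 and 8, so all of these markers were detected in all 3 libraries.

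Most barcodes with a Foxp3 UMI were T cells. In tumors 602 retained barcodes held a Foxp3 UMI and 501 of them (83.2%) met the rule. Of the rest, 42 held no CD3 UMI, 21 held 1 CD3 UMI, 27 held Cd79a, 7 held Cd8a, 3 held Trdc and 1 held more than 1 of these last 3 genes. In mucosa 27 barcodes held a Foxp3 UMI, of which 20 met the rule, 6 held no CD3 UMI and 1 held more than 1 of the excluded genes. The background was low: 12 of 25634 tumor barcodes with Epcam and no CD3 UMI held a Foxp3 UMI (0.0468%, exact 95% binomial interval 0.0242 to 0.0818%), at a median of 11689 UMIs per barcode, as did 6 of 17398 in mucosa (0.0345%). Among gated T cells (the same rule without the Foxp3 term) the share was 9.35% in tumors, at a median of 3717 UMIs. Intervals here and below cover counting error only.

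Some genes changed step by step from just inside to just outside the rule, and others did not. Summed over tumors, Tnfrsf4 was at 1749 CPM in the 248 cells with at least 2 Foxp3 UMIs, 1548 CPM in the 253 cells with 1, 647 CPM in the Foxp3+ barcodes with 1 CD3 UMI and 64.0 CPM in those with none. Ikzf2 stood at 606, 552, 479 and 84.2 CPM in the same order. The neutrophil gene S100a9 ran the other way, at 1122 CPM and 2164 CPM inside the rule and at 16079 CPM and 9236 CPM outside it. Ctla4 stood at 941, 933, 935 and 108 CPM in the order above, with no step at the edge of the rule. Tnfrsf18 stood at 1133, 892, 887 and 118 CPM.

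Foxp3+ regulatory T cells took a larger share of barcodes in every tumor than in the mucosa of the same mouse. They made up 0.316% of retained barcodes in the lowest tumor (tumor 2), 0.580% in the median and 0.666% in the highest (tumor 9), against 0.193% in mucosa 1, 0.0281% in mucosa 2 and 0.0765% in mucosa 3. No tumor overlapped the mucosa. The mean difference within mice was 0.461 percentage points ± 0.168 (SD, 3 mice), with p = 0.0133 in a two-sided exact permutation test within mice, the smallest value that its 75 arrangements allow, and 10 of 10 tumors lay above their own mucosa. Over the other gates, filters and thinning the difference ran from 0.153 to 0.514 points. Without mucosa 1 it was 0.557 points and without mucosa 2 it was 0.424 points, where the smallest exact permutation p that can be had is 0.0667. The mucosal counts were 10, 3 and 7 cells, and gated T cells were shallower there (median 1813 UMIs) than in tumors. Thinned to 1000 UMIs per barcode, which evens out the chance of catching a Foxp3 transcript, the shares averaged 0.184% in tumors and 0.0313% in mucosa, with 10 of 10 tumors again above their own mucosa (exact permutation p = 0.0133). The thinned shares of mucosa 1, 2 and 3 were 0.0396, 0.0199 and 0.0344%. They rest on fewer cells than the 10, 3 and 7 counted before thinning.

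**Figure D1:**
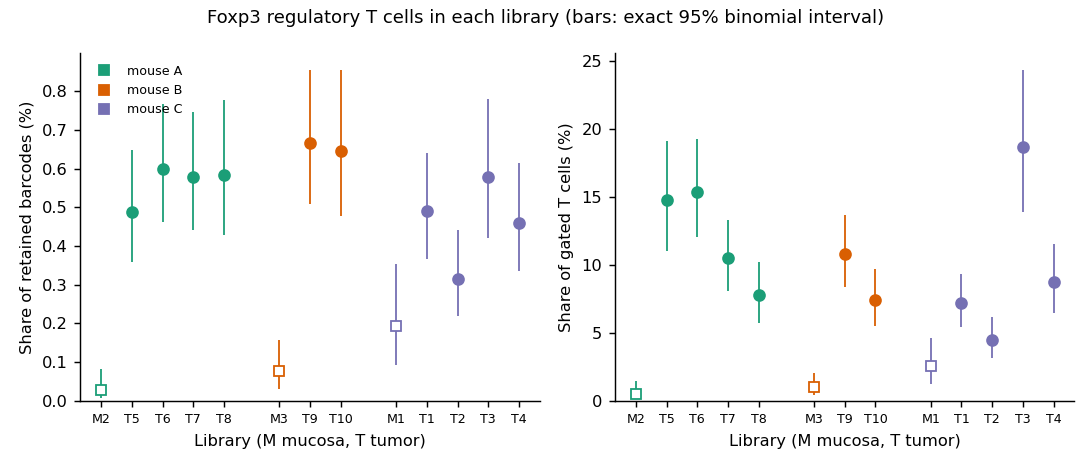
Share of retained barcodes (left, percent) and of gated T cells (right, percent) that were Foxp3+ regulatory T cells, for each library of mice A, B and C, with squares for mucosa, circles for tumors and bars for exact 95% binomial intervals. Tumors lie between 0.316% and 0.666% on the left and mucosa at 0.193% or less, and on the right tumor 3 stands highest at 18.7%.

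Among T cells the size of the difference depended on whether a Cd4 UMI was asked for. Foxp3+ cells were 4.46% of gated T cells in the lowest tumor, 9.61% in the median and 18.7% in the highest (tumor 3), against 2.52%, 0.508% and 0.994% in mucosa 1, 2 and 3. The mean difference was 8.98 points (exact permutation p = 0.0133, 10 of 10 tumors above their own mucosa), and 8.89 points without the marked doublets (exact permutation p = 0.0133). The make-up of the gated T cells differed between tissues, though, since 35 to 50.9% of them held a Cd4 UMI in tumors and 4.41 to 23.7% in mucosa. When a Cd4 UMI was asked of both the Foxp3+ cells and the T cells, the difference was 5.26 points (11.5% against 6.24%), 9 of 10 tumors were higher, and the exact permutation p was 0.147. Leaving out single libraries gave 7.68 to 9.84 points and exact permutation p-values up to 0.133. The p rose past 0.05 without mucosa 1, 2 or 3 (9.84, 7.68 and 9.42 points) and without tumor 9 or 10 (8.42 and 9.54 points). Without mucosa 1 or 2 the smallest exact permutation p that can be had is 0.0667, so 0.05 could not be reached there. The p was at this floor without mucosa 1 and above it without mucosa 2 (0.133). Without mucosa 3, tumor 9 and tumor 10 the exact permutation p was 0.12, 0.06 and 0.06. These also lay above the smallest values that can be had, 0.04, 0.02 and 0.02. Every remaining tumor stayed above its own mucosa in each setting that left out 1 library. Against conventional CD4 T cells alone (gated T cells with a Cd4 UMI and no Foxp3 UMI), Foxp3+ cells were 10.0, 11.1 and 11.3% of the sum of both in mucosa 1, 2 and 3 and 11.8 to 37.4% in tumors (median 20.5%), which was not tested. No Cd4 UMI was asked of the Foxp3+ cells here, and 45.5% of them in tumors and 50% in mucosa held it, so the 2 gates are unlike.

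Tumors of mouse B had the highest share of retained barcodes, 0.656 ± 0.0139% (SD, n = 2), followed by mouse A with 0.563 ± 0.0503% (n = 4) and mouse C with 0.461 ± 0.110% (n = 4). The mice differed by an exact permutation test of the F ratio (F = 4.30, p = 0.0451), and by the same exact permutation test without the marked doublets (F = 5.47, p = 0.0305). For the share of gated T cells they did not pass it (F = 0.352, exact permutation p = 0.726), where tumors of mouse C ranged from 4.46 to 18.7%.

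To show what set these cells apart within tumors, they were set beside the 2006 conventional CD4 T cells of the same tumors. The contrast follows the choice by Foxp3 and is given as a description without a test. The conventional group was chosen by Cd4 and can include regulatory T cells whose Foxp3 transcript was not captured. Of 2704 genes with a mean of at least 50 CPM over both groups, 181 (6.69%) were higher in the Foxp3+ cells in all 10 tumors and 124 (4.59%) were lower in all 10. A gene can pass this limit through a single group where it is high. The counts here and by list below are thus partly set by the limit and describe the contrast only. Without the marked doublets the counts were 180 and 146, of which 142 and 109 were shared with the first counts. The median log2 ratio over all of these genes was 0.08. UMIs were counted at the 3′ end of transcripts, so levels are not divided by gene length.

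**Figure D2:**
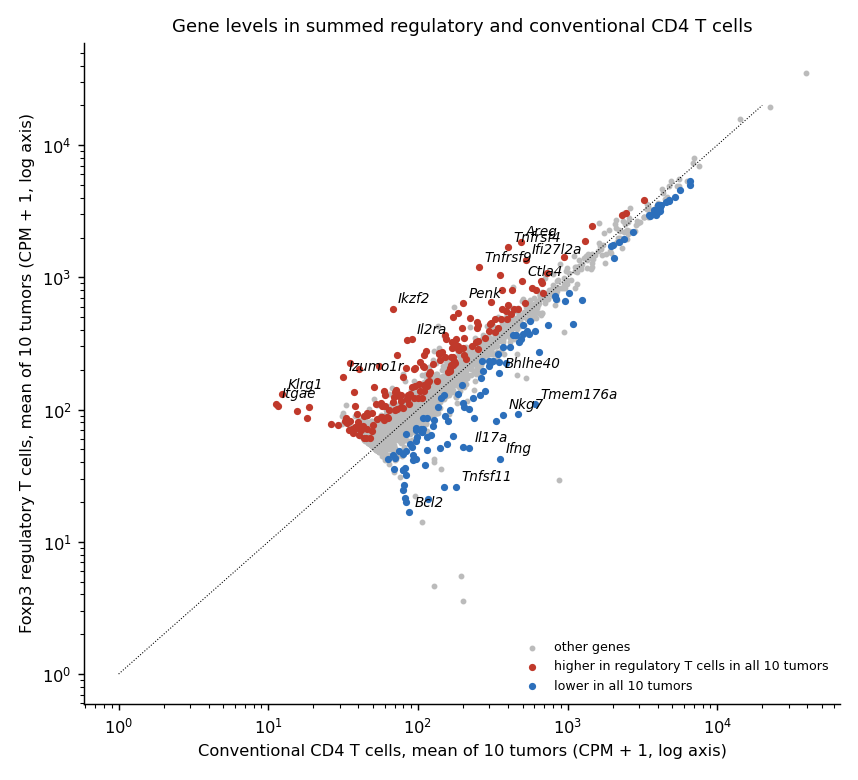
Mean level of each gene over 10 tumors in conventional CD4 T cells (x axis) and in Foxp3+ regulatory T cells (y axis), both as CPM + 1 on log axes, with genes higher in all 10 tumors in red, lower in all 10 in blue and the dotted line at equal levels. Of 2704 genes, 181 are red and 124 blue, with Ikzf2, Tnfrsf9 and Klrg1 far above the line and Ifng, Tnfsf11 and Bcl2 below it.

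Genes of regulatory T cell identity were higher in the Foxp3+ cells. Of 12 measured genes besides Foxp3, 8 were higher in all 10 tumors and 0 were lower in all 10, with a median log2 ratio of 1.24 (6 and 0, and 1.31, without the marked doublets). Ikzf2, which encodes Helios, stood at 352 CPM in the lowest tumor, 568 CPM in the median and 909.6 CPM in the highest, against 16.7 to 170.4 CPM in conventional cells, an 8.66-fold difference of the means. The highest conventional value was in tumor 3. The IL-2 receptor alpha chain Il2ra (CD25) was at 340.2 ± 121 CPM against 89.9 ± 68.6 CPM (SD, n = 10 tumors). Izumo1r, the folate receptor 4 gene long used as a regulatory T cell marker, was at 176 CPM against 30.5 CPM, and Itgae, the alpha E integrin chain that binds E-cadherin on epithelium, was at 110 CPM against 10.3 CPM. Icos was higher in 8 of 10 tumors at 1.22 times the conventional mean. Below the level limit, Ikzf4 (Eos, a partner of Foxp3) was at 47.9 CPM against 13 CPM.

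Among receptors of the TNF receptor family and their NF-kappaB relay, many genes were higher too. Of 13 measured genes, 7 were higher in all 10 tumors and 0 were lower in all 10 (median log2 ratio 0.89, and again 7 and 0 without the marked doublets). Tnfrsf4 was 4.21 times, Tnfrsf18 2.95 times and Tnfrsf9 (4-1BB, a receptor of recently stimulated T cells) 4.72 times the conventional mean. Tnfrsf9 was at 845.8 CPM in the lowest tumor and 1770 CPM in the highest, against 169 to 394 CPM in conventional cells, so the groups did not overlap. The costimulatory receptor Cd27 was at 104 CPM against 17.6 CPM. Further down the relay, the adaptor Traf1 was at 460.2 CPM against 248 CPM and the NF-kappaB subunit Rel at 271 CPM against 143 CPM.

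Effector genes of tissue regulatory T cells were compared as well. Of 20 measured, 6 were higher in all 10 tumors and 1 was lower (median log2 ratio 0.75, with 5 and 1 without the marked doublets). Klrg1, an inhibitory receptor for cadherins found on differentiated T cells, was at 49.0 to 199 CPM against 2.28 to 30.1 CPM, an 11.3-fold difference of the means. Il1rl1, the receptor for the alarmin IL-33, was at 105 ± 47.3 CPM against 10.6 ± 8.65 CPM. The tetraspanin Cd81 was at 203 CPM against 39.2 CPM and the inhibitory receptor Pdcd1 (PD-1) at 72.8 CPM against 36.7 CPM. The transcription factor Bhlhe40, which promotes effector cytokine production, was the 1 gene lower in all 10, at 188 CPM against 346 CPM. Gata3, under the level limit, was higher in all 10 tumors at 56.6 ± 17.7 CPM against 24.1 ± 5.60 CPM. The chemokine receptor Ccr8 was low, at 9.11 CPM against 2.73 CPM.

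Secreted and enzymatic mediators were led by Areg. It reached 1102 CPM in the lowest tumor (tumor 8), 1630 CPM in the median and 3269 CPM in the highest (tumor 9), against 293 to 891.6 CPM in conventional cells. Areg was detected in 337 of 501 tumor cells, 53.3 to 78.3% of them per tumor, and 131 cells held at least 10 UMIs, with 153 in the highest. Of 8 measured mediators, 2 (Areg and Ctla4) were higher in all 10 tumors and 0 were lower in all 10, with a median log2 ratio of 0.86. The cytotoxic protease Gzmb was at 594 ± 279 CPM against 174 ± 135 CPM and higher in 9 of 10. The anti-inflammatory cytokine Il10 was at 19.2 to 122 CPM against 2.28 to 15.5 CPM, and higher in all 10. Itgb8, the integrin chain that helps activate latent TGF-beta, was at 41.7 CPM against 4.23 CPM, and Ebi3, a subunit of IL-35, at 32.8 CPM against 8.88 CPM. Penk, which encodes the precursor of enkephalin opioid peptides, lay outside this list at 638 ± 324 CPM against 199 ± 80.5 CPM and was higher in all 10 tumors.

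Of 12 measured interferon response genes, 7 were higher in all 10 tumors and 0 were lower in all 10 (median log2 ratio 0.89, and again 7 and 0 without the marked doublets). Ifi27l2a was at 1362 ± 528 CPM against 528 ± 134 CPM, the GTPase gene Igtp at 259 ± 68.2 CPM against 109 ± 24.7 CPM and Gbp7 at 176 CPM against 78.2 CPM. Of 13 measured homing genes, 3 were higher (Ccr2 and Itgae among them) and 3 lower (Cxcr4, Cxcr6 and Itgb1) in all 10. Ccr2, a receptor for monocyte chemoattractant proteins, was at 274 ± 54.0 CPM against 112 ± 21.8 CPM.

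Cytokines of effector T cells ran opposite. Of 5 measured, 4 were lower in all 10 tumors and 0 were higher in all 10 (median log2 ratio -2.11, and again 4 and 0 without the marked doublets). Ifng, the type 1 cytokine, was at 0 CPM in the lowest tumor, 20.3 CPM in the median and 188 CPM in the highest, against 137 to 1041 CPM in conventional cells. Tnfsf11 (RANKL) was at 25.1 CPM against 179 CPM, and Il17a, the cytokine of type 17 cells, at 50.5 CPM against 218 CPM. Tmem176a and Tmem176b, membrane proteins common in type 17 cells, were at 109 CPM against 605 CPM and 91.7 CPM against 467 CPM. The survival gene Bcl2 was at 15.7 ± 8.2 CPM against 86.2 ± 26.1 CPM, lower in all 10. Of 12 genes of resting T cells 4 were measured, and these showed no such shift (0 higher and 0 lower in all 10 tumors, median log2 ratio -0.01). Tcf7 and Lef1 of that list, below the level limit, had lower means in Foxp3+ cells. T cell receptor activation genes (0 of 9, median -0.13) and cell cycle genes (1 of 12 higher, median 0.12) showed no such shift either. The same held for glycolysis genes (Pkm higher and Eno1 lower among 13, median 0.05). Without the marked doublets 1 T cell receptor activation gene and 1 cell cycle gene were lower in all 10 tumors, with list medians of -0.19 and -0.02. Of 11 measured IL-2 signaling genes, 2 were higher in all 10 tumors (Il2ra and Pim1) and 1 was lower (Bcl2), with a median log2 ratio of 0.24. Without the marked doublets the counts were 1 and 1, with a median of 0.23.

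**Figure D3:**
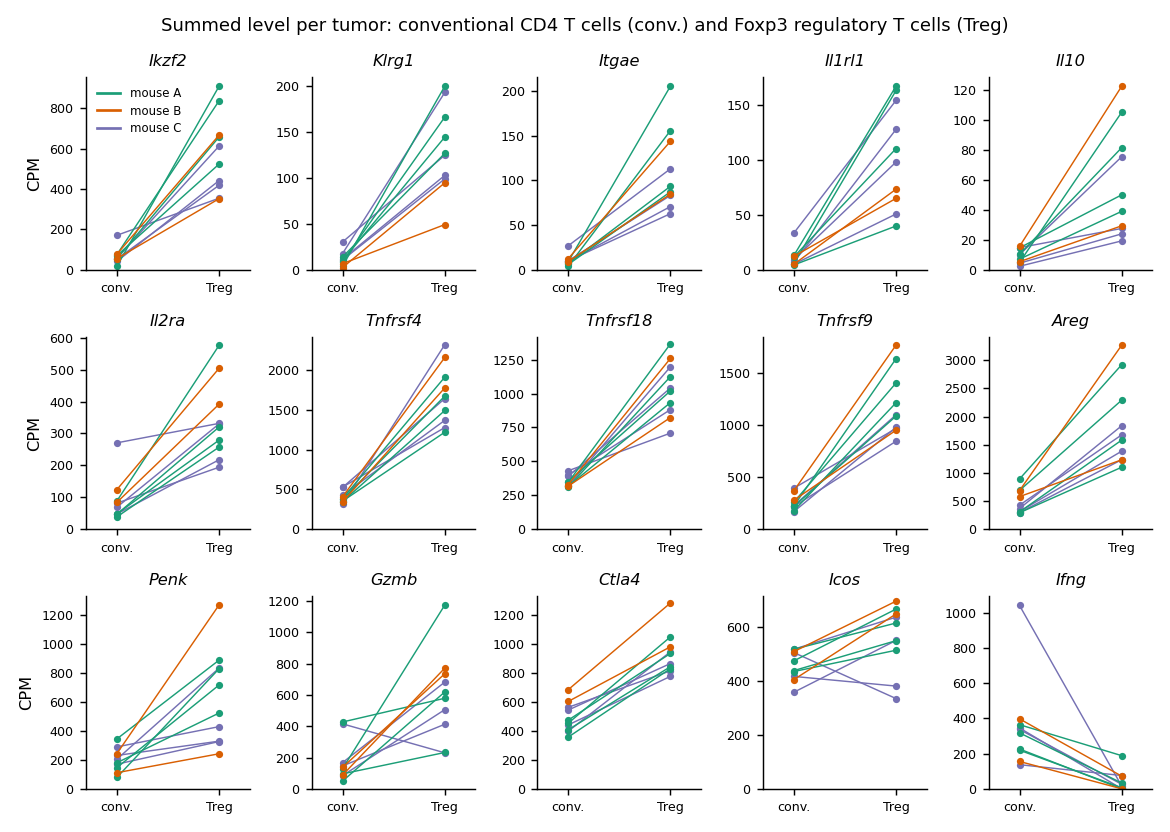
Level of 15 genes in each tumor (CPM, y axes from 0) in conventional CD4 T cells (left point) and Foxp3+ regulatory T cells (right point), joined by a line for each of the 10 tumors and colored by mouse. All lines rise for Ikzf2, Klrg1, Itgae, Il1rl1, Il10, Il2ra, Tnfrsf4, Tnfrsf18, Tnfrsf9, Areg, Penk and Ctla4, while Gzmb rises in 9, Icos in 8 and Ifng falls in all 10.

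The genes with the largest ratio to conventional cells, among those of at least 50 CPM in the Foxp3+ cells that were higher in all 10 tumors, included several outside the lists. This limit is set on the Foxp3+ cells alone, so a gene can pass it only through the group where it is high. The limit on the mean of both groups above can be passed in that way too, through either group. These values illustrate the contrast without adding support to it. Ednrb, an endothelin receptor, was at 59.0 CPM against 3.90 CPM (15.1-fold). Pcsk1, a protease that matures peptide hormones, was at 58.0 CPM against 5.84 CPM and Gpr55, a receptor for lysophospholipids, at 58.3 CPM against 8.51 CPM. Rapsn, known from the neuromuscular junction, was at 96.8 CPM against 14.6 CPM, Bmyc, a relative of Myc, at 224 CPM against 34.0 CPM, and Nrn1, which encodes neuritin, at 60.5 CPM against 9.84 CPM. The immunoglobulin gene Ighm was at 85.3 CPM against 17.1 CPM. Of the B and plasma cell marker list, which holds Ighm, 8 of 10 genes had UMIs in tumor Foxp3+ cells.

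Transcripts of other cell types were present in both groups. Neutrophil markers summed to 171 to 8117 CPM over the tumor Foxp3+ cells of a library and to 160.3 to 8532 CPM over conventional cells, against 20658 to 41297 CPM over all retained tumor barcodes. All 10 markers of that list had UMIs. Macrophage markers summed to 147 to 3365 CPM, epithelial markers to 43.5 to 3279 CPM and stromal markers to 9.76 to 41.4 CPM in tumor Foxp3+ cells. B and plasma cell markers summed to 369 to 1607 CPM in tumor Foxp3+ cells, 201 to 4192 CPM in conventional cells and 17405 to 74029 CPM over all retained tumor barcodes. Without the marked doublets the sums in tumor Foxp3+ cells were 138 to 2072 CPM for neutrophil and 86.3 to 3782 CPM for macrophage markers. They were 42.8 to 3864 CPM for epithelial and 422 to 1963 CPM for B and plasma cell markers. The highest sum was thus lower for neutrophil markers and higher for the other 3 lists. The median tumor sum fell from 3748 to 339 CPM for neutrophil, from 977 to 168 CPM for macrophage and from 458 to 181 CPM for epithelial markers. For B and plasma cell markers it rose from 901 to 1031 CPM. In mucosal Foxp3+ cells 4 of 10 B and plasma cell markers had a UMI (363 to 640 CPM). In the same cells 2 of 10 neutrophil, 0 of 10 macrophage and 0 of 8 stromal markers had a UMI, and epithelial markers summed to 605 to 2560 CPM. Their part in the results was not tested.

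Within tumors the Foxp3+ cells varied in genes that mark kinds of regulatory T cells. Each cell was thinned to 1000 UMIs, which left 496 tumor cells, and a gene was counted as detected if 1 UMI remained. Ikzf2 was detected in 25% of cells in the lowest tumor, 38.6% in the median and 67.4% in the highest. The proliferation gene Mki67 was detected in 5.04% of Foxp3+ cells and 4.51% of conventional cells. Over all tumors pooled, Ikzf2 was detected in 41.9% of Foxp3+ cells against 4.96% of conventional cells, Tnfrsf9 in 62.5% against 16.1%, Areg in 49.8% against 13.7%, Klrg1 in 11.7% against 1.15% and Il1rl1 in 11.5% against 0.901%.

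Cells with and without Ikzf2 differed in what else was detected. Of the 208 tumor cells with an Ikzf2 UMI after thinning, 19.7% held Itgae against 8.0% of the 288 without, and Itgae was more often detected with Ikzf2 in 9 of 10 tumors. Il1rl1 was detected in 17.3% against 7.29% (8 of 10 tumors), Klrg1 in 16.8% against 7.99% (7 of 10), Gata3 in 11.5% against 4.51% (9 of 10) and Tnfrsf4 in 75% against 63.2% (9 of 10). Areg was at 52.4% against 47.9% (5 of 10 tumors). Other genes were less often detected with Ikzf2, as Gzmb at 20.2% against 25% (lower in 8 of 10 tumors), Il10 at 3.85% against 7.64% (lower in 7 of 10) and Izumo1r at 16.3% against 21.2% (lower in 6 of 10). Of the 58 cells with Klrg1, 65.5% held Areg against 47.7% of the 438 without (9 of 10 tumors), and 19.0% held Gata3 against 5.94% (8 of 10). Cells of a tumor share their library, so these shares are descriptions without a test. Without the marked doublets Areg remained more frequent with Klrg1 in 9 of 10 tumors (64.8% against 49.5%), while Itgae was more frequent with Ikzf2 in 6 of 10 (19.9% against 8.57%).

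Detection after thinning was then compared between tumors and mucosa for 12 regulatory T cell genes, with 19 mucosal cells left. Tnfrsf9 was detected in 39.6% of cells in the lowest tumor, 63.6% in the median and 75.4% in the highest, against 11.1%, 33.3% and 14.3% in mucosa 1, 2 and 3. Areg was detected in 33.3%, 54.0% and 57.8% in the same order, against 0, 0 and 28.6%. No tumor overlapped the mucosa for either gene. Mucosa 1, 2 and 3 held only 9, 3 and 7 cells after thinning. Each mucosal share of Tnfrsf9 was thus 1 cell, and the Areg share of mucosa 3 was 2 cells. The differences within mice were 41.3 points for Tnfrsf9 and 38.9 points for Areg, each with p = 0.0133 in the two-sided exact permutation test within mice and an adjusted p of 0.04 over the 12 genes (Benjamini-Hochberg), with 10 of 10 tumors above their own mucosa. Klrg1 (11 points) had the same exact permutation p, but the mucosal cells held 4 UMIs of it in all and its tumor shares lay near the level of single UMIs, so no order was read from it. The adjusted p of 0.04 rests on 4 of the 12 genes, Klrg1 among them, sharing this smallest exact permutation p. With fewer such genes it would be higher. By CPM Klrg1 was lower in tumors by 49.1 CPM. Ikzf2 did not pass (33.3 to 57.1% in mucosa, difference -8.09 points, adjusted exact permutation p = 0.48), nor did Gata3, Il10, Il1rl1, Ccr8, Tigit and Mki67. In the alternatives (no thinning, 2000 UMIs, CPM, no marked doublets, and each of mucosa 1 to 3 and tumors 1 to 10 left out) 0 of the 12 genes were called, with adjusted exact permutation p-values of Tnfrsf9 and Areg from 0.05 to 0.267. Both genes stood at the smallest unadjusted p of each alternative, which is 0.0133 to 0.0667, so the loss does not show a smaller difference. The adjusted p of each alternative also depends on how many of the 12 genes share its smallest p. Tnfrsf9 differed by 56.4 points and Areg by 56.7 points without thinning, and by 35.3 to 47.3 points and 32.7 to 49.2 points on leaving out single libraries.

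**Figure D4:**
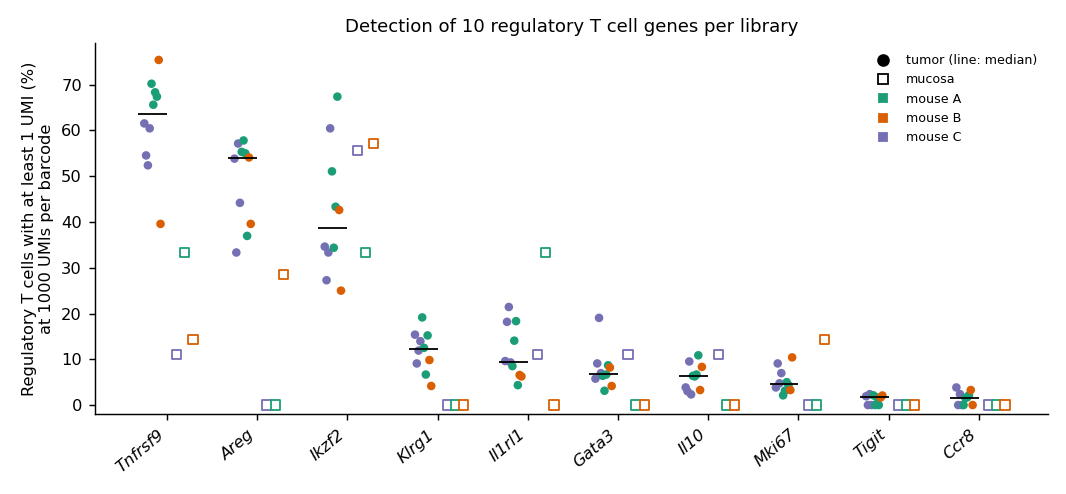
Share of Foxp3+ regulatory T cells with at least 1 UMI of each of 10 genes after thinning to 1000 UMIs (percent, y axis), with circles for the 10 tumors, a line at their median and squares for the 3 mucosa libraries, colored by mouse. All tumors lie above all mucosa for Tnfrsf9 (39.6% or more against 33.3% or less) and Areg (33.3% or more against 28.6% or less), while the ranges overlap for Ikzf2. Mucosa 1, 2 and 3 hold 9, 3 and 7 cells.

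Summed gene counts were compared between tumor and mucosal Foxp3+ cells with edgeR's quasi-likelihood test. Mucosa 1 was the only mucosa library with at least 10 cells, so the planned comparison set 10 tumors against 1 library, whose spread is assumed to equal that of the tumors. Of 6419 genes, 11 (0.171%) were higher in tumors at an adjusted p under 0.05 and 0 were lower, while 638 genes had an unadjusted p under 0.05. The count was 0 with the mouse as a block, which accounts for mucosa and tumors from the same animal, 1 without the marked doublets, 2 with tumor sums added per mouse and 43 with DESeq2. Against mucosa 1 alone, the fit with the mouse as a block takes its difference only from the tumors of mouse C, the animal of mucosa 1. The median log2 fold change over all genes was 0.59. It was not subtracted, so all values of this comparison are to be read against it and not against 0. Genes that were not called cannot be taken as equal at this depth. With all 3 mucosa libraries, added after the cell counts were seen, 147 of 4609 genes (3.19%) were higher and 6 (0.13%) lower, in all 153. The median log2 fold change over all genes of this fit was 0.71, also toward tumors. The count of 153 became 161 with the mouse as a block, 89 with DESeq2 and 54 without the marked doublets. Leaving out mucosa 1, 2 or 3 from this fit gave 106, 34 and 43 genes.

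Tnfrsf9 was higher in tumors by 3.42 ± 0.59 on the log2 scale (SE), with an adjusted p of 0.0308 in edgeR, and it remained called in 19 of 23 alternatives (adjusted p 4.04e-05 to 0.0744). With the mouse as a block its edgeR adjusted p was 0.0656 against mucosa 1 and 0.000143 against all 3 mucosa libraries. It gave 4, 2 and 3 UMIs in mucosa 1, 2 and 3, which is 161, 427 and 224 CPM, against 846 to 1770 CPM in tumors. Pooled over libraries the ratio was 5.70 (exact 95% interval 3.00 to 12.5). Areg gave 0, 0 and 10 UMIs in the 3 mucosa libraries, with an adjusted p of 0.0218 in edgeR and 21 of 23 alternatives called (adjusted p 4.04e-05 to 0.0656). With the mouse as a block the edgeR adjusted p of Areg was 0.0656 against mucosa 1 and 0.00445 against all 3. Its pooled ratio was 8.15 (4.43 to 17.0). The 10 mucosal UMIs of Areg came from 2 cells of mucosa 3, 8 of them from 1 cell, so they were not independent counts, and without mucosa 3 no mucosal UMI remained. In conventional CD4 T cells, Tnfrsf9 was at 254 CPM in tumors and 28.4 CPM in mucosa, and Areg at 485 CPM and 50.6 CPM.

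Odc1, which encodes the rate-limiting enzyme of polyamine synthesis, was at 1257 to 3780 CPM in tumors and gave 8, 0 and 6 UMIs in mucosa. It was higher by 3.52 ± 0.57 on the log2 scale (adjusted p = 0.0218 in edgeR, 22 of 23 alternatives called, adjusted p 9.78e-10 to 0.0656), with a pooled ratio of 7.88 (4.69 to 14.4). The stress-response gene Gadd45b was at 848.8 to 1254 CPM in tumors, gave 6, 0 and 10 UMIs in mucosa and was higher by 2.69 ± 0.40 (adjusted p = 0.0218 in edgeR, 20 of 23 alternatives called, adjusted p 2.64e-04 to 0.0753). H2afz, a histone variant gene expressed in cycling cells, was at 1893 to 3055 CPM in tumors, gave 18, 2 and 9 UMIs in mucosa and was higher by 2.28 ± 0.35 (adjusted p = 0.0218 in edgeR, 20 of 23 alternatives called, adjusted p 9.78e-10 to 0.0661). With the mouse as a block the edgeR adjusted p of Odc1, Gadd45b and H2afz was 0.0656, 0.0569 and 0.0569 against mucosa 1, and 0.000143, 0.00536 and 0.000143 against all 3. In conventional CD4 T cells of tumors against mucosa, these 3 genes stood at 1613 CPM against 219.8 CPM, 731 CPM against 169 CPM and 1445 CPM against 1104 CPM.

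The remaining calls were kept in fewer alternatives, and none was kept against mucosa 1 with the mouse as a block. Hilpda, a hypoxia-induced lipid droplet gene, was at 185 to 384 CPM in tumors and gave 0 UMIs in mucosa, which makes it at least 3.75-fold higher in tumors against a floor of 3 counts over the mucosa group, and it remained called in 10 of 23 alternatives. Got1, an aminotransferase gene of the malate-aspartate shuttle, gave 1 UMI in mucosa, a pooled ratio of 12.7 (2.27 to 502), and remained called in 18. The glycolytic enzyme gene Gapdh (pooled ratio 1.64, 1.27 to 2.15) remained called in 9, the proteasome maturation gene Pomp (2.11, 1.15 to 4.42) in 8 and Gna13, a G protein subunit gene (1.86, 0.793 to 5.75), in 2.

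The identity markers did not pass the test between tissues. In edgeR, Tnfrsf4 differed by 0.49 ± 0.37 (adjusted p = 0.587), Ctla4 by 0.61 ± 0.32 (adjusted p = 0.502), Tnfrsf18 by 0.46 ± 0.36 (adjusted p = 0.601) and Icos by 0.08 ± 0.40 (adjusted p = 0.939), each as log2 fold change with its SE. Of 23 alternatives, 1 called Tnfrsf4 and 1 called Ctla4, both with mucosa 2 and 3 in place of mucosa 1 (log2 fold changes 1.54 and 2.72, adjusted p = 0.0279 and 0.00381 in edgeR). Ikzf2 gave 21, 4 and 17 UMIs in mucosa, which is 847, 853 and 1270 CPM, against 352 to 909.6 CPM in tumors, and its pooled ratio was 0.593 (0.437 to 0.827). By list, 0 of 15 tested identity genes were called, 2 of 23 effector genes (Areg and Tnfrsf9), 1 of 13 mediators (Areg), 1 of 16 TNF receptor and NF-kappaB genes (Tnfrsf9), 1 of 20 cell cycle genes (H2afz) and 1 of 16 glycolysis genes (Gapdh), all higher, and 0 in the other lists, beside 0.171% of all genes. Against all 3 mucosa libraries, where 3.19% of all genes were higher, the calls were 0 of 14 identity genes, 5 of 22 effector genes, 2 of 11 mediators, 4 of 15 TNF receptor and NF-kappaB genes, 2 of 19 cell cycle genes, 4 of 15 glycolysis genes, 1 of 9 genes of peripherally induced cells and 4 of 16 dissociation-response genes, all higher. Of the neutrophil markers 1 of 8 was called higher as well, Il1b, at 55.1 to 2490 CPM in tumors with 0 UMIs in mucosal Foxp3+ cells, and 0 genes were called in the remaining lists. Dissociation-response genes summed to 6498 to 9405 CPM in tumor and 5078 to 6826 CPM in mucosal Foxp3+ cells, and the part of these genes and of the neutrophil transcripts in the calls was not tested.

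A further test asked whether the tumor-mucosa difference itself differed between Foxp3+ and conventional CD4 T cells. In edgeR 14 of 7491 genes (0.187%) were called, 13 with a difference more toward tumor in Foxp3+ cells. The median log2 difference over all genes tested was 0.74, which was not subtracted from the values below. The called genes included Atp5g3, Atp5md and Atp5l, subunits of the mitochondrial ATP synthase. Their log2 differences (Foxp3+ minus conventional) were 3.33 ± 0.57, 2.29 ± 0.36 and 1.84 ± 0.29 (SE), with adjusted p = 0.0225, 0.0289 and 0.0195 in edgeR, and they remained called in 12, 6 and 11 of 15 alternatives. Atp5g3 was at 383 CPM in tumor Foxp3+ cells and 347 CPM in tumor conventional cells, and at 163 CPM (7 UMIs) and 668 CPM in those of mucosa. These mucosal values are pooled over all 3 mucosa libraries, whereas the log2 difference of 3.33 was fitted with mucosa 1 only. Higd1a, an inner mitochondrial membrane protein gene, differed by 2.62 ± 0.41 (adjusted p = 0.0195 in edgeR, 12 of 15 alternatives called). Pim1, a kinase gene induced by cytokines, ran the other way with a log2 difference of -2.17 ± 0.42 (adjusted p = 0.0433 in edgeR, 5 of 15 alternatives called). It was at 576 CPM in tumor Foxp3+ cells against 361 CPM in conventional cells, and gave 21, 0 and 1 UMIs in the Foxp3+ cells of mucosa 1, 2 and 3. The count was 5 without the marked doublets and ran from 1 to 41 on leaving out single tumors, with 1 without tumor 5 or 7, 7 without tumor 6, 8 or 9 and 41 without tumor 4. The mucosal side of this test is the 10 Foxp3+ cells and the conventional cells of mucosa 1. With all 3 mucosa libraries the count was 216, at a median log2 difference of 0.79 over all genes tested. Pim1 was then at -0.82 ± 0.59 (adjusted p = 0.459 in edgeR) and Atp5md at 1.22 ± 0.35 (adjusted p = 0.0543), neither of them called, while Atp5g3 at 2.72 ± 0.40 (adjusted p = 0.00112), Higd1a at 2.19 ± 0.35 (adjusted p = 0.00179) and Atp5l at 1.25 ± 0.26 (adjusted p = 0.0102) were.

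Between the tumors of the 3 mice, a test added after the data were seen (edgeR, 4883 genes) called 1 gene (0.0205%), Il17a, at an adjusted p of 0.0416. Its level was 8.97, 38.4, 15.1 and 0 CPM in tumors 1 to 4 of mouse C, 7.79, 8.72, 8.81 and 0 CPM in tumors 5 to 8 of mouse A, and 71.6 and 345.8 CPM in tumors 9 and 10 of mouse B. Both tumors of mouse B were above all others. The counts came from few cells: 19 of 501 tumor Foxp3+ cells held 156 Il17a UMIs, of which 113 were in 3 of 48 cells of tumor 10 and 73 in 1 of them, and 21 of the 22 UMIs of tumor 9 were in 1 cell. Il17f, the paired cytokine, gave 26 UMIs in tumor 10, 25 of them in 1 cell. No mucosal Foxp3+ cell held an Il17a UMI, which at 0 of 20 cells and a floor of 3 counts allows a share of cells with a UMI of up to 15%. This limits cells with a captured transcript at a median of 1837 UMIs, not cells that express the gene. The call was not stable: without tumor 10 the edgeR adjusted p of Il17a was 0.370, and it was also above the threshold without tumor 1, 5, 6, 7 or 8 (0.0604 to 0.156), while it was 0.00185 without tumor 9.

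**Figure D5:**
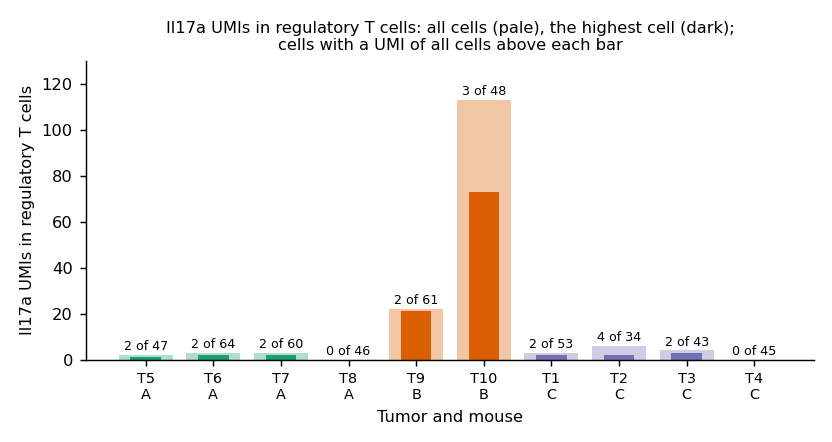
UMIs of Il17a (y axis) summed over the Foxp3+ regulatory T cells of each tumor (pale bars) and in the single highest cell (dark bars), with tumors ordered by mouse A, B and C and the number of cells with a UMI of all cells above each bar. Tumor 10 holds 113 UMIs in 3 of 48 cells, 73 of them in 1 cell, and tumors 4 and 8 hold 0.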

How the data were processed

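Single-cell 3′ libraries of 10 tumors and 3 mucosa samples were analysed from the deposited filtered count matrices. These hold UMI counts per gene and barcode, which the authors made with Cell Ranger 6.0.0 on mm10, per the submitters' processing notes (the study's methods name an earlier version). No normalization had been applied. Of 137591 barcodes, 118892 were retained, which had 500 or more UMIs, 200 or more genes and a mitochondrial share of UMIs below 25%. The cells and gene lists were chosen with earlier results of these data known.

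Doublet scores came from scanpy 1.11.5 (Scrublet), and per library the highest scores, 0.8% per 1000 barcodes, were marked (8982 barcodes) but kept in the main results. Shares were compared by exact permutation within mice, with Python 3.11.15 and scipy 1.17.1. For genes, UMIs of the cells of a library were summed and libraries with at least 10 cells were tested with edgeR 4.0.16 (TMM, quasi-likelihood, filterByExpr, Benjamini-Hochberg threshold 0.05) in R 4.3.3. DESeq2 1.42.0 was an alternative. CPM were computed from the summed counts. The edgeR fit of tumors against mucosa was also run on simulated counts, whose results are not reported here. Animals come from codes in the labels, mice were the block in the alternative fit, and shared replicate numbers name no shared animal. Over 1511 genes, mucosa deviations correlated with those of their own mouse's tumors at 0.0253 to 0.148.

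Named genes were the markers, the 12 subset genes, up to 4 called genes per list and direction, up to 10 called genes per direction (5 for the difference of differences), and the 15 largest ratios to conventional cells among genes of at least 50 CPM. Results of a few genes, among them 2 of the 12 subset genes, are not reported here. Other genes given as examples of a list were chosen after their values were seen. Alternatives changed the normalization, filters, gate, doublets, thinning and tool, and left out each library in turn. The p-values treat libraries as replicates, and tumors of a mouse share that animal.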

Additional observations from a re-analysis of the deposited data

Results flagged for a closer look

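Of 53 groups of tumor values checked for a library far from the rest, 3 stood out, where chance gives about 5% of groups. Foxp3 stood at 439 CPM in the regulatory T cells of tumor 9 against 275 to 359 CPM in the other 9 tumors, a value that describes the cells chosen by Foxp3 and is not a result. Il17a stood at 345.8 CPM in tumor 10 against 0 to 71.6 CPM in the others. Gata3 was detected after thinning in 19.0% of cells of tumor 3 against 3.13 to 9.09% in the others. The share of cells with Gata3 rests on a few cells per tumor.

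The tumor-mucosa difference of 6 named genes differed between regulatory and conventional CD4 T cells in edgeR's test of the difference. On the log2 scale (regulatory minus conventional) it was 10.35 for Mrps21, a mitochondrial ribosome gene with 0 UMIs in the regulatory T cells of mucosa 1, so that its value depends on the prior count and is no bound. It was 3.33 for Atp5g3, 2.62 for Higd1a, 2.29 for Atp5md, 1.84 for Atp5l and -2.17 for Pim1. All 6 rest on the 10 regulatory T cells of mucosa 1, and the median over all genes tested was 0.74.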

How the results depend on the processing

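The share of retained barcodes was 0.402 to 0.557 points higher in tumors on leaving out single libraries, and the call was lost where a missing mucosa library left too few arrangements. The difference in the share of gated T cells was 7.68 to 9.84 points on leaving out single libraries and 5.26 points with a Cd4 UMI in both. The F ratio between mice was 0.352 for the share of gated T cells. For the gene test of tumors against mucosa, 11 genes in the main result became 6 with DESeq2's size factors, 43 with DESeq2, 2 with tumor sums added per mouse, 1 without the marked doublets and 0 with the mouse as replicate block, where 640 genes had an unadjusted p under 0.05. The pairing by mouse comes from the animal codes. Leaving out single tumors gave 5 to 11 genes. With all 3 mucosa libraries, chosen after seeing the data, the count was 153, and then 161 with the mouse as replicate block, 89 with DESeq2, 54 without the marked doublets and 34 to 106 without 1 mucosa library (106, 34 and 43 without mucosa 1, 2 and 3). The 14 genes of the difference between regulatory and conventional CD4 T cells became 6 with DESeq2's size factors, 80 with no filter on low counts, 5 without the marked doublets, 1 to 41 without single tumors, 216 with all 3 mucosa libraries and 69 with those and no marked doublets. The 4 subset genes called became 0 without thinning, at 2000 UMIs, by CPM, without the marked doublets and on leaving out any library, where the smallest p that can be had is 0.0133 to 0.0667 before adjustment. The cause of these changes was not tested.

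Directions turned for results that had not passed their test, and for Klrg1. For detection, Ikzf2 was 3.90 points higher in tumors without thinning and 9.35 points higher at 2000 UMIs, Il1rl1 5.33 and 6.31 points higher under the same settings and 4.96 points higher without mucosa 2 (-9.25 to 4.96 over single libraries left out). Il10 differed by -1.97 points at 2000 UMIs and -0.312 points without mucosa 2 (-0.312 to 6.67 over single libraries left out). Mki67 differed by -9.09 points at 2000 UMIs and by -1.89, -0.635 and -0.396 points without mucosa 1, mucosa 2 and tumor 10 (-1.89 to 4.91 over single libraries left out). By CPM, Gata3 differed by -31.8, Klrg1 by -49.1 and Tigit by -0.329. The log2 fold change of Icos was -0.0068 with DESeq2's size factors, -0.13 with the mouse as replicate block and -0.0070 with DESeq2. With all 3 mucosa libraries it was -0.15, with the replicate block -0.16, with DESeq2 -0.46, without the marked doublets -0.14, and without mucosa 1 and 3 -0.12 and -0.35.

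The planned gene tests under 10% mitochondrial UMIs, at 1000 UMIs and 500 genes, with 2 Foxp3 UMIs or with a Cd4 UMI gave no value, since no mucosa library then held 10 cells (at most 9, 9, 3 and 4). The mucosal Foxp3+ cells held 42868 UMIs in 20 cells. The 1 gene called between mice became 0 to 11 on leaving out single tumors (0 without tumor 1, 5, 6, 7 or 8, 4 without tumor 3, 3 without tumor 9 and 11 without tumor 10). The other 2 counts checked, of genes higher and lower in all 10 tumors, stayed within 1.5 times without the marked doublets.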

Other observations

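Several genes under the level limit of the comparison in tumors were set beside conventional CD4 T cells after their values were seen. The gut-homing receptor Ccr9 stood at 48.5 ± 26.2 CPM in regulatory T cells against 9.70 ± 4.81 CPM in conventional CD4 T cells (SD, n = 10 tumors) and was higher in 9 of 10 tumors. Ccr9 and Ccr6 belong to the list of genes of peripherally induced cells. Of the 6 genes of that list above the level limit, 1 (Maf) was higher and 3 (Tmem176a, Tmem176b and Cxcr6) were lower in all 10 tumors, with a median log2 ratio of -0.80 and of -0.77 without the marked doublets. The receptor Ccr6, which guides cells to lymphoid structures of the gut, was at 46.5 CPM against 18.8 CPM, and the transcription factor Tox, known from chronically stimulated T cells, at 42.2 CPM against 10.7 CPM. The cytokine Il22, which acts on epithelium, was at 0.325 CPM against 70.3 CPM and lower in 9 of 10. Of the factors of resting T cells, Tcf7 was at 13.6 CPM against 55.9 CPM and Lef1 at 27.7 CPM against 51.0 CPM.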
